A study of Mus musculus with 2 samples.

Results

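The genes followed here encode scavenger receptors, or proteins counted with them, other than Cd36, and are described across the cell types of the inflamed mouse peritoneum. The 10 genes were Marco, Msr1, Colec12, Mrc1, Stab1, Cd163, Cd5l, Scarb1, Cd68 and Lrp1, each taken as the row of the count matrices that carries exactly that symbol. All 10 were found among 31053 genes. The Cd36-/- library was made from mice that carry floxed CD36 together with LysM-Cre, a Cre recombinase driven by the lysozyme 2 promoter that acts in macrophages, neutrophils and other myeloid cells. The fl/fl library came from mice with floxed CD36 whose strain label names no LysM-Cre. Both groups were 10 to 14 weeks old, received 1 mg of zymosan, a yeast cell wall preparation that causes peritonitis, in the peritoneal cavity, and gave their total peritoneal cells 3 days later. Each library was a pool of 4 replicates read with 10x Genomics 3′ v2 chemistry, so there was 1 library per group. No difference given here therefore has a replicate check or a test, and every interval is an exact 95% interval that covers counting error only.

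Scavenger receptors bind modified lipoproteins, microbial surfaces, dying cells and other polyanionic cargo and carry it into the endosome. Macrophages use many of them side by side, among them Cd36, a class B receptor for oxidised lipoprotein and fatty acids. Marco and Msr1 are trimeric class A receptors with a collagen-like stalk, and Colec12 is a membrane collectin of similar build. Mrc1, the mannose receptor CD206, and Stab1 clear glycoproteins and matrix fragments, and Cd163 takes up haemoglobin bound to haptoglobin. Cd5l is a secreted protein of the scavenger receptor cysteine-rich family, Scarb1 is the high-density lipoprotein receptor, Cd68 is a glycoprotein of the late endosome and lysosome, and Lrp1 is a large endocytic receptor of the low-density lipoprotein receptor family. In the peritoneum, Marco is known from the large resident macrophages that depend on the transcription factor Gata6.

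The upstream sequences of Marco, Mrc1 and Stab1 are shown because, of the 8 genes compared, these 3 differed most between the libraries in macrophages. Each is the 250 bases before the gene's start in the RefSeq table for GRCm38.p6, read 5′ to 3′ on the gene's strand, with every match to GAGGAA, the core bound by the myeloid factor PU.1, or to its reverse complement in capitals. Marco lies on chromosome 1 and its window is chr1:120505025-120505274, minus strand. Mrc1 has chr2:14229164-14229413, plus strand, and Stab1 has chr14:31168642-31168891, minus strand.
Marco: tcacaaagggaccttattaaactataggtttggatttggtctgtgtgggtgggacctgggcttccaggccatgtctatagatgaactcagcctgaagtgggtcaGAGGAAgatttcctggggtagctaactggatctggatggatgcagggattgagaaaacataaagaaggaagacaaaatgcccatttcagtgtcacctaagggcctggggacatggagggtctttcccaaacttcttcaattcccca
Mrc1: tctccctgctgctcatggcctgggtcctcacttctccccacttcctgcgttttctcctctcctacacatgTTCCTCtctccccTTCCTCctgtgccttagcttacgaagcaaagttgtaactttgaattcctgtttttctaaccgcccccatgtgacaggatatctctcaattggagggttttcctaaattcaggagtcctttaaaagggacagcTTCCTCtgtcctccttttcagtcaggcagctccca
Stab1: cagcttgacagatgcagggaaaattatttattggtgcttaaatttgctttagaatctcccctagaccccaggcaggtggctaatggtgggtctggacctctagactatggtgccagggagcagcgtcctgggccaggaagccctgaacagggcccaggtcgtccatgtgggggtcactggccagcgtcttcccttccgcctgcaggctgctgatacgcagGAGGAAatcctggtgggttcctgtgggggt
The core lies 146 bases before the start of Marco, 180, 167 and 35 bases before that of Mrc1, and 30 bases before that of Stab1. RefSeq entries were used for 7 of the 10 genes. Of these, 5 held the core on either strand (Marco, Mrc1, Stab1, Cd5l and Cd68), as did 23.3% of 32851 promoters of the same length. The core of the Maf factor site, TGCTGA, was in 2 of the 7 (Stab1 and Cd5l) and 16.1% of all promoters, the AP-1 site TGANTCA in 1 (Cd68) and 6.75%, and the TATA box TATAAA in 0 of the 7 and 12.4%. Both strands were searched for each motif, and a match describes the letters only. No entry was used for Msr1, Scarb1 or Colec12, so the motif counts leave these genes out. RefSeq and the gene annotation differ slightly in where Mrc1 starts, and the distances count from the RefSeq start.

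The Cd36-/- library held 16543 barcodes and 116600732 unique molecular identifiers (UMIs, each standing for 1 captured transcript), and the fl/fl library 15537 barcodes and 117238057 UMIs. After filtering and removal of doublets, 14966 Cd36-/- and 13965 fl/fl cells remained (a median of 6561.5 and 6892 UMIs per cell), and 383 barcode sequences occurred in both libraries. Clusters were named from marker genes that include none of the 10. Macrophages, with C1qa, Csf1r and Adgre1, made up 67.4% of Cd36-/- and 57.4% of fl/fl cells (10082 and 8017 cells). They were divided by the mean score of marker lists. Large peritoneal macrophages (LPM, 3861 Cd36-/- and 3116 fl/fl cells) scored high on a list that includes Gata6 and Timd4. MHC class II macrophages (510 and 651 cells) scored high on their own list and were led by Retnla. Gata6-low macrophages (5711 and 4250 cells) were the clusters high on neither list, so Gata6 alone did not set the name. Levels are CPM, the UMIs of a gene per 1000000 UMIs of all genes, summed over the cells of a class. Since 1 UMI stands for 1 transcript end, CPM were not divided by gene length. As the check of the labels, Cd36 itself had 172 CPM in Cd36-/- and 242 CPM in fl/fl macrophages (log2 ratio -0.49), so its 3′ tag was still counted in the Cd36-/- library. The labels do not state which exons are floxed, and a 3′ tag outside the deleted part checks nothing.

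Macrophages held most of the UMIs of each of the 10 genes, although Mrc1 and Cd163 had higher levels in cDC2, the conventional dendritic cells of type 2, than in macrophages as a whole. Of all UMIs of each gene, macrophages held between 88.8% (Cd163) and 98.5% (Msr1) in the Cd36-/- library, and between 79.3% (Cd163) and 97.9% (Msr1) in the fl/fl library. On mm10 the 10 genes lie on 10 different chromosomes. The macrophage groups divided the genes differently. By level, Marco and Colec12 were highest in LPM, Stab1 in Gata6-low and Mrc1 in MHC class II macrophages of both libraries. Gata6-low macrophages, the larger group, still held 76.5% of the Mrc1 UMIs of the Cd36-/- library and 68.0% of those of the fl/fl library.

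**Figure D1:**
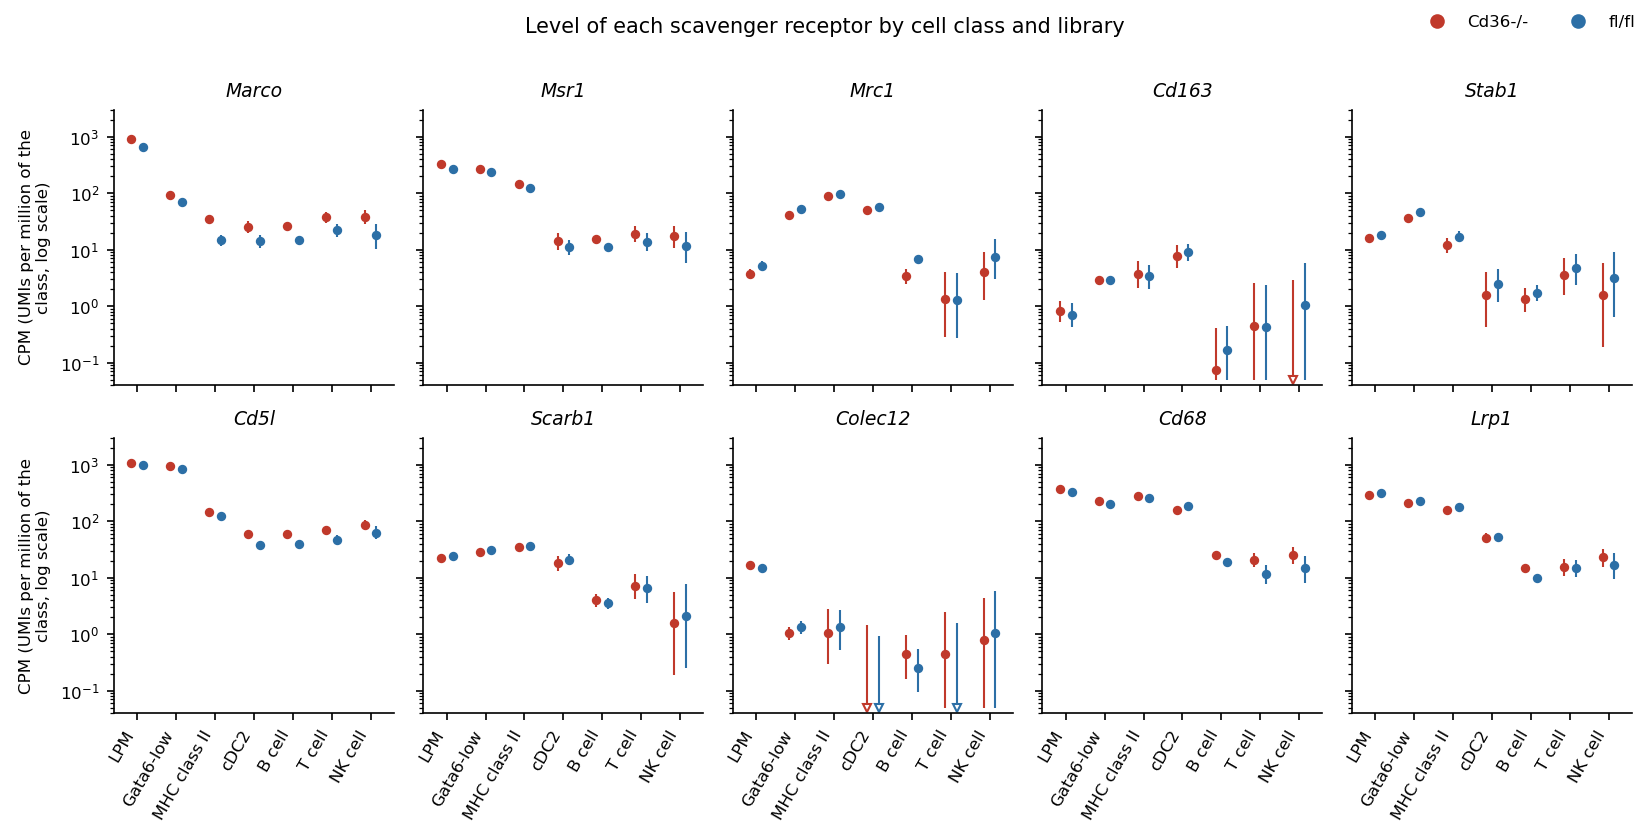
CPM (log axis) of each of the 10 genes in the 3 macrophage groups, cDC2, B, T and NK cells, with Cd36-/- left of fl/fl and exact 95% Poisson intervals. Open triangles mark a count of 0. Marco is highest in LPM (926 and 667 CPM) and lowest of the 3 groups in MHC class II macrophages (35.1 and 14.8 CPM), and Mrc1 runs the other way (3.78 and 5.23 CPM in LPM, 90.0 and 95.3 CPM in MHC class II macrophages).

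Marco, which binds bacteria and unopsonised particles, had 926 CPM in Cd36-/- LPM and 667 CPM in fl/fl LPM. In Gata6-low macrophages it had 92.7 CPM in Cd36-/- and 69.0 CPM in fl/fl cells, and in MHC class II macrophages 35.1 and 14.8 CPM. LPM held 82.6% of all Marco UMIs of the Cd36-/- library and 82.5% of those of the fl/fl library. Msr1, which takes up acetylated and oxidised lipoprotein, was more even, with 322 and 264 CPM in LPM, 268 and 241 CPM in Gata6-low and 146 and 124 CPM in MHC class II macrophages of the Cd36-/- and fl/fl library. Colec12, the membrane collectin, was scarce everywhere, with 16.7 CPM in Cd36-/- and 14.7 CPM in fl/fl LPM against 1.04 and 1.32 CPM in Gata6-low macrophages. It had no UMI in 317 Cd36-/- and 409 fl/fl cDC2, which allows a share of up to 0.946% and 0.733% of these cells with a UMI.

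Mrc1 was low in LPM, at 3.78 CPM in Cd36-/- and 5.23 CPM in fl/fl cells. It had 40.8 and 51.5 CPM in Gata6-low macrophages, 90.0 and 95.3 CPM in MHC class II macrophages, and 49.7 and 56.3 CPM in cDC2. Stab1, a receptor for acetylated lipoprotein and matrix fragments, had 36.0 CPM in Cd36-/- and 47.1 CPM in fl/fl Gata6-low macrophages, 16.3 and 18.04 CPM in LPM, and 12.1 and 17.1 CPM in MHC class II macrophages. In cDC2 it had 4 UMIs in Cd36-/- and 10 UMIs in fl/fl cells. Cd163 was close to the limit of detection in macrophages, with 182 UMIs in 10082 Cd36-/- and 161 UMIs in 8017 fl/fl cells (2.20 and 2.18 CPM), and had 7.76 and 8.97 CPM in cDC2, from 20 and 36 UMIs.

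Cd5l, which circulates bound to immunoglobulin M, was at 1067 CPM in Cd36-/- and 986 CPM in fl/fl LPM and at 936 and 858 CPM in Gata6-low macrophages. In MHC class II macrophages it was at 146 and 122 CPM. Cd68 had 377 CPM in Cd36-/- and 329 CPM in fl/fl LPM, 226 and 205 CPM in Gata6-low, and 286 and 257 CPM in MHC class II macrophages. Lrp1 had 293 and 313 CPM in LPM, 214 and 224 CPM in Gata6-low, and 161 and 179 CPM in MHC class II macrophages of the Cd36-/- and fl/fl library. Scarb1 was low and even, with 22.3 and 24.3 CPM in LPM, 28.4 and 30.7 CPM in Gata6-low and 35.1 and 35.8 CPM in MHC class II macrophages. Like Mrc1, it was lowest in LPM and highest in MHC class II macrophages of both libraries, but over a much narrower range.

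Between the libraries, Marco was the member apart upwards in macrophages and Mrc1 downwards. Genes were compared where they reached 20 CPM in at least 1 library, which 8 of the 10 did. Cd163 and Colec12 did not (Colec12 had 6.37 CPM in Cd36-/- and 5.95 CPM in fl/fl macrophages). Size was described by a limit of 25% higher or 20% lower, the same fold in each direction, drawn as dashed lines in the plot of ratios. Marco was past it upwards, as were 1.41% of the 4595 genes compared, and Mrc1 downwards, as were 2.26% of them. The other 6 lay within it. The median log2 ratio of the 8 was 0.04, beside -0.01 for all genes compared, and 4 were higher and 4 lower.

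Marco had 373 CPM in Cd36-/- macrophages, from 30831 UMIs, and 271 CPM in fl/fl macrophages, from 20026 UMIs. The log2 ratio was 0.46 (0.43 to 0.49), and 99.4% of the genes compared had a lower ratio. Msr1 had 281 CPM in Cd36-/- and 241 CPM in fl/fl macrophages (log2 ratio 0.22, 0.19 to 0.25), with 96.1% of genes lower. Cd68 (280 and 251 CPM) and Cd5l (945 and 850 CPM) had ratios of 0.16 and 0.15 on the log2 scale. The 4 compared members with a positive ratio were thus the 2 trimeric class A receptors, the lysosomal glycoprotein and the secreted cysteine-rich protein. C1qa, a complement gene of macrophages and a marker of the class, had a ratio of 0.09, and Lyz2, the locus that carries LysM-Cre, had 17845 CPM in Cd36-/- and 28939 CPM in fl/fl macrophages (-0.70).

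Mrc1 had 30.4 CPM in Cd36-/- macrophages, from 2512 UMIs, and 38.7 CPM in fl/fl macrophages, from 2855 UMIs. Its log2 ratio was -0.35 (-0.43 to -0.27), and 1.87% of genes had a lower one. Stab1 lay just inside the limit, with 28.2 CPM in Cd36-/- and 34.9 CPM in fl/fl macrophages (log2 ratio -0.31, -0.39 to -0.23). Scarb1 had 26.6 and 28.9 CPM (-0.12, -0.20 to -0.03), and Lrp1 had 238 and 252 CPM (-0.08, -0.11 to -0.05). The call for Mrc1 ended with another scaling of the 2 macrophage sums (TMM), which moved the median of all genes by 0.04 on the log2 scale and left Mrc1 at -0.31 and Stab1 at -0.27. With doublets kept, Mrc1 stood at -0.31, within the limit, and Stab1 at -0.33, past it.

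**Figure D2:**
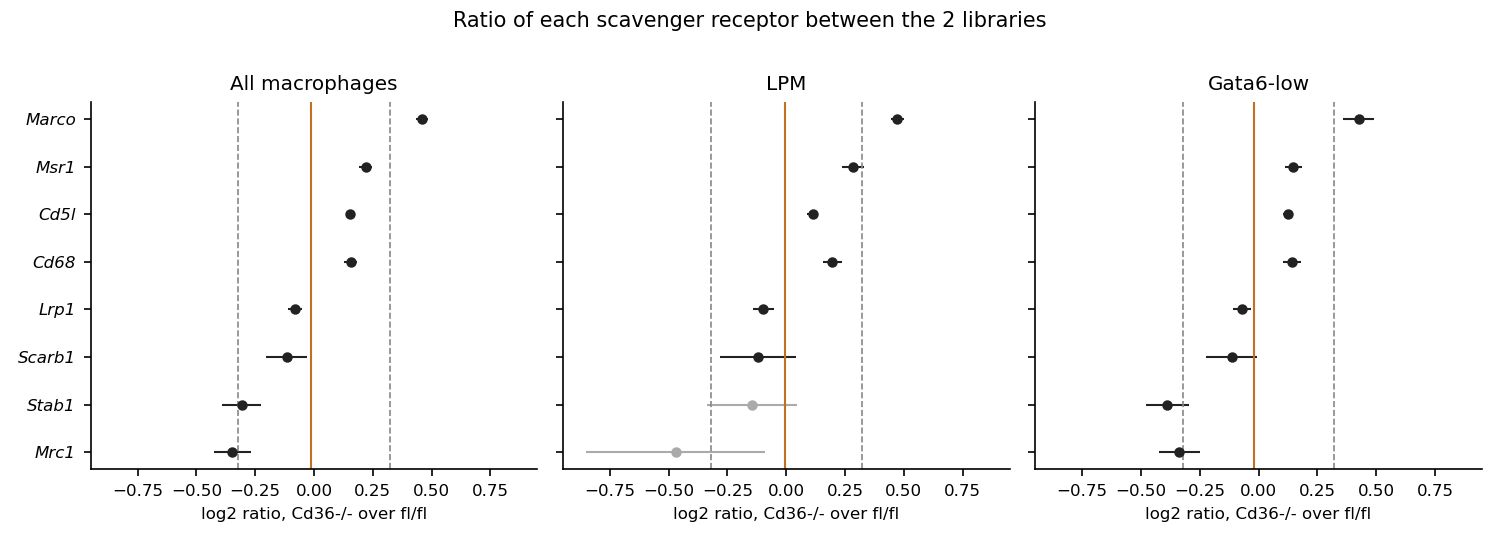
Log2 ratio, Cd36-/- over fl/fl, of the 8 genes compared, in all macrophages, LPM and Gata6-low macrophages, with exact conditional intervals. Dashed lines mark 25% higher and 20% lower, the brown line the median of all genes compared, and grey points genes under 20 CPM in both libraries. Marco stands right of the limit in all 3 panels, at 0.46, 0.47 and 0.43.

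Within the macrophage groups, Marco kept its direction. Its log2 ratio was 0.47 in LPM (0.44 to 0.50), where 2.35% of genes were at least 25% higher and C1qa stood at 0.34, and 0.43 in Gata6-low macrophages (0.36 to 0.49), where 1.84% were. With Gata6-low macrophages gated on marker UMIs in place of clusters, the ratio there was 0.16. In MHC class II macrophages it was 1.248 (0.83 to 1.67), past 2-fold like 0.265% of genes there, but from only 131 Cd36-/- and 78 fl/fl UMIs. B cells, a type that should lack the gene, had 26.3 CPM in the Cd36-/- library and 14.7 CPM in the fl/fl library, close to the fl/fl level in MHC class II macrophages. Msr1 was 0.28 in LPM and 0.15 in Gata6-low macrophages. Mrc1 at -0.34 and Stab1 at -0.39 were both at least 20% lower in Gata6-low macrophages, as were 3.14% of genes there. With every Gata6-low cluster given the same weight in both libraries, Mrc1 stood at -0.13 and Stab1 at -0.21, both within the limit.

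Mrc1 and Stab1 differed strongly between macrophage clusters, and the shares of those clusters differed between the libraries. The Folr2 and Lyve1 cluster had the highest Stab1 (64.0 CPM in Cd36-/- and 79.3 CPM in fl/fl cells) and much of the Mrc1 (84.5 and 85.7 CPM), and it made up 14.9% of Cd36-/- and 21.7% of fl/fl macrophages. The MHC class II cluster, with the highest Mrc1, made up 5.06% and 8.12%. The Fpr1 and Ccr2 cluster, with 38.3 and 41.7 CPM of Mrc1, made up 22.2% of Cd36-/- and 15.0% of fl/fl macrophages. With every cluster given the same weight in both libraries, Mrc1 stood at 32.9 CPM in Cd36-/- and 36.2 CPM in fl/fl macrophages, a log2 ratio of -0.14, and Stab1 at 29.1 and 33.6 CPM, a ratio of -0.21. Neither was then past the limit. Marco, weighted the same way, stood at 378 and 268 CPM (0.49).

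The 9 macrophage clusters gave the ratios separately, but all come from the same 2 libraries, so they do not repeat the comparison. How many of all genes kept 1 direction across the clusters was not counted. Msr1 and Cd5l were higher in Cd36-/- cells in 9 of 9 clusters, with log2 ratios of 0.06 to 0.55 and 0.0021 to 0.36. Marco was higher in 8 of 9. Stab1 was lower in 8 of 9 and Mrc1 in 7 of 9, though for Mrc1 the smallest count behind a ratio was 9 UMIs. Where it reached 20 CPM in a library, Mrc1 was past the limit only in the cycling Gata6-low cluster led by Top2a, with 34.7 CPM in Cd36-/- and 50.7 CPM in fl/fl cells (log2 ratio -0.54, -0.75 to -0.34), where 4.14% of genes were as much lower. In the 2 clusters with the most Mrc1 it was at -0.02 and -0.08.

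The Alox15 LPM cluster (1074 Cd36-/- and 839 fl/fl cells) had the opposite order for Marco. It was lower there, with 250 CPM in Cd36-/- and 298 CPM in fl/fl cells (log2 ratio -0.26, -0.35 to -0.16). Msr1 had 406 CPM in Cd36-/- and 276 CPM in fl/fl cells (0.55), and Cd68 had 390 and 240 CPM (0.70). These 2 were past the limit upwards in a cluster where 24.9% of 4622 genes were, with a median over all genes of 0.10, and where C1qa was also higher (0.63). Among the macrophage clusters, Colec12 had its highest level here, 28.1 CPM in Cd36-/- and 24.5 CPM in fl/fl cells. In the Lcn2 and Saa3 LPM cluster, Marco had 1199 CPM in Cd36-/- and 804 CPM in fl/fl cells (0.58), against a background of 2.42% of genes, and Msr1 299 and 263 CPM (0.19). In the cycling LPM cluster Marco had 771 and 745 CPM (0.05, -0.03 to 0.13).

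**Figure D3:**
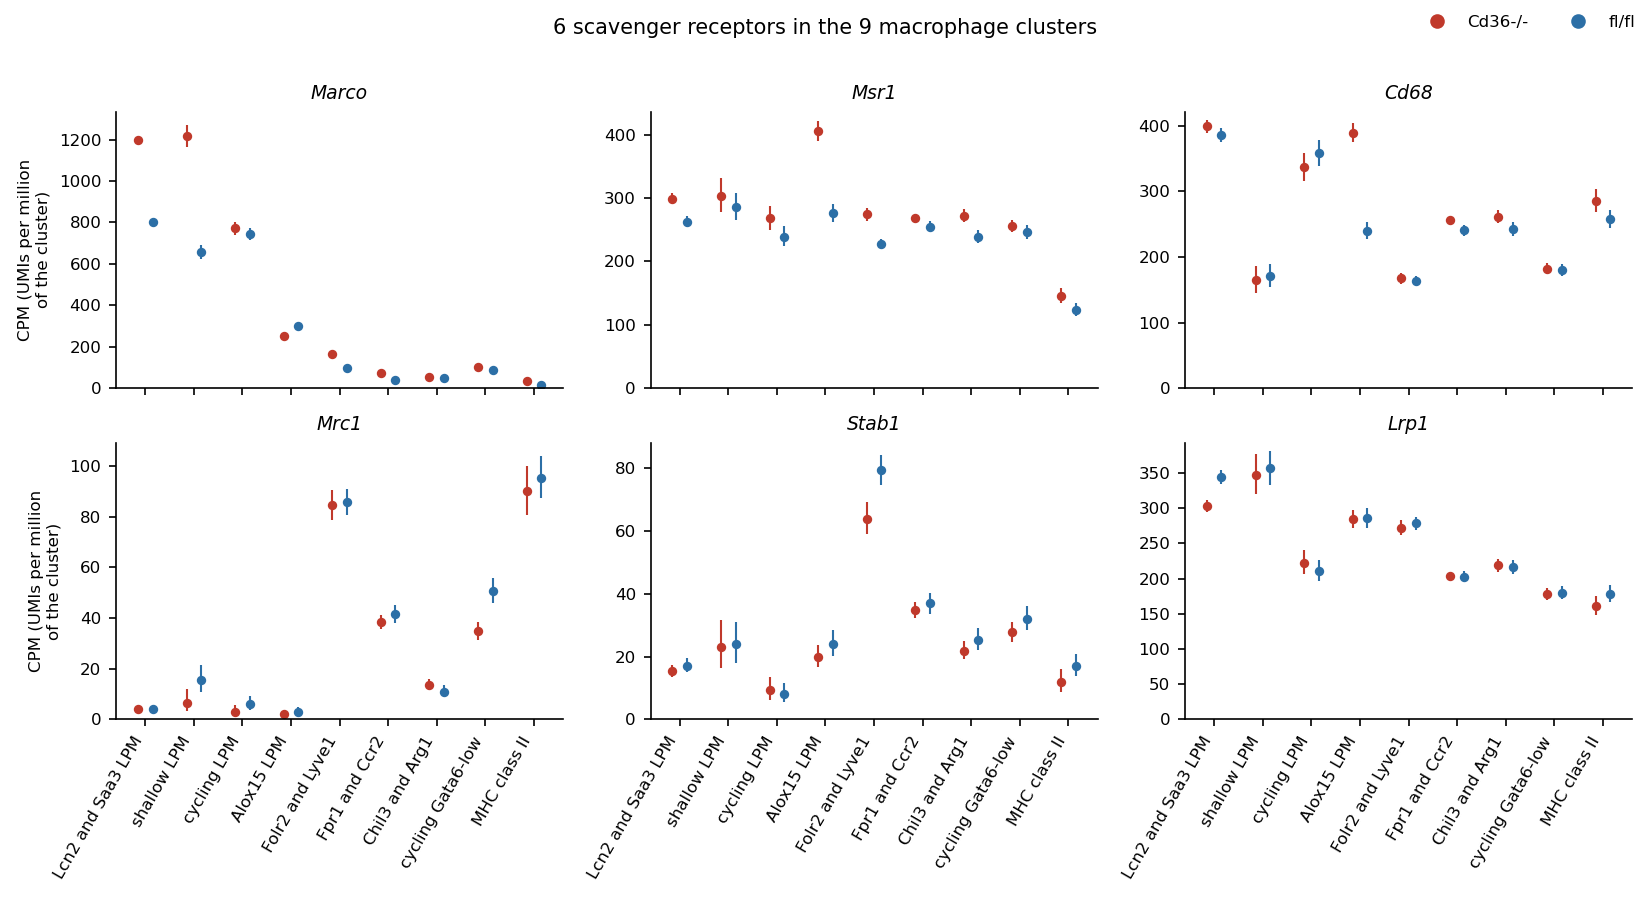
CPM (linear axis from 0) of Marco, Msr1, Cd68, Mrc1, Stab1 and Lrp1 in the 9 macrophage clusters, named by leading genes or state, with Cd36-/- left of fl/fl and exact 95% Poisson intervals. Marco is higher in Cd36-/- cells of 8 clusters and lower in the Alox15 LPM cluster (250 and 298 CPM), where Msr1 (406 and 276 CPM) and Cd68 (390 and 240 CPM) are apart the other way.

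Scarb1 varied widely among the clusters. In the Folr2 and Lyve1 cluster it had 20.4 CPM in Cd36-/- and 28.0 CPM in fl/fl cells (log2 ratio -0.46), where 3.87% of genes were at least 20% lower. In the shallow LPM cluster, of 2514 UMIs median depth, it had 27.9 CPM in Cd36-/- and 13.4 CPM in fl/fl cells (1.05, 0.37 to 1.75), from 46 and 32 UMIs, and 0.354% of genes were there at least 2-fold higher. Of the 8 genes compared, Lrp1 had the narrowest range of cluster ratios, -0.19 to 0.08.

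Outside the macrophages, UMIs of a macrophage gene can come from free RNA in the droplets, and 3 complement genes that macrophages alone should make, C1qa, C1qb and C1qc, gave its size. Their level in B, T and NK cells was 5.7% to 9.2% of that in macrophages for Cd36-/- and 4.2% to 7.7% for fl/fl cells. Marco in B cells was at 7.05% of its macrophage level in the Cd36-/- library (26.3 CPM) and at 5.42% in the fl/fl library (14.7 CPM). Msr1 was at 5.46% and 4.61%, Cd5l at 6.29% and 4.76%, and Lrp1 at 6.27% and 3.95%. Cd68 in B cells stood higher, at 9.09% (8.14 to 10.1) for Cd36-/- and 7.67% (6.97 to 8.42) for fl/fl cells, where the C1q genes in B cells lay at 5.70% to 6.54% and 4.24% to 4.96%. All 3 members compared in B cells, Marco, Cd5l and Cd68, were at least 25% higher there in the Cd36-/- library, as were 3.5% of genes, and so were C1qa, C1qb and C1qc, with log2 ratios of 0.53, 0.57 and 0.57. The part of free RNA in these differences was not tested.

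In cDC2, 5 members lay above the C1q genes. Mrc1 was at 163% of the macrophage level in Cd36-/- and 146% in fl/fl cDC2, and Cd163 at 352% and 411%. Scarb1 was at 68.4% and 72.5%, Cd68 at 57.4% and 73.1%, and Lrp1 at 21.7% and 20.7%. Marco, Msr1, Cd5l and Stab1 in cDC2 lay at 4.98% to 6.86% of the macrophage level for Cd36-/- and at 4.46% to 7.14% for fl/fl cells, beside 5.98% to 6.41% and 4.997% to 6.56% for the C1q genes there. In cDC1, of which there were only 39 Cd36-/- and 34 fl/fl cells, Scarb1 was at 78.5% and 96.1% (8 and 13 UMIs) and Cd68 at 46.7% and 49.3% of the macrophage level, with the C1q genes at 4.98% to 7.72% and 2.73% to 5.41%. The fibroblast and mesothelial cluster had 31 cells in each library and held C1q genes at 40.3% to 47.1% of the macrophage level for Cd36-/- and at 29.4% to 35.2% for fl/fl cells. Colec12 was at 231% (27.9 to 838) and 518% (207 to 1076) there, from 2 and 7 UMIs, and Marco at 25.6% and 107%, from 13 and 66 UMIs.

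**Figure D4:**
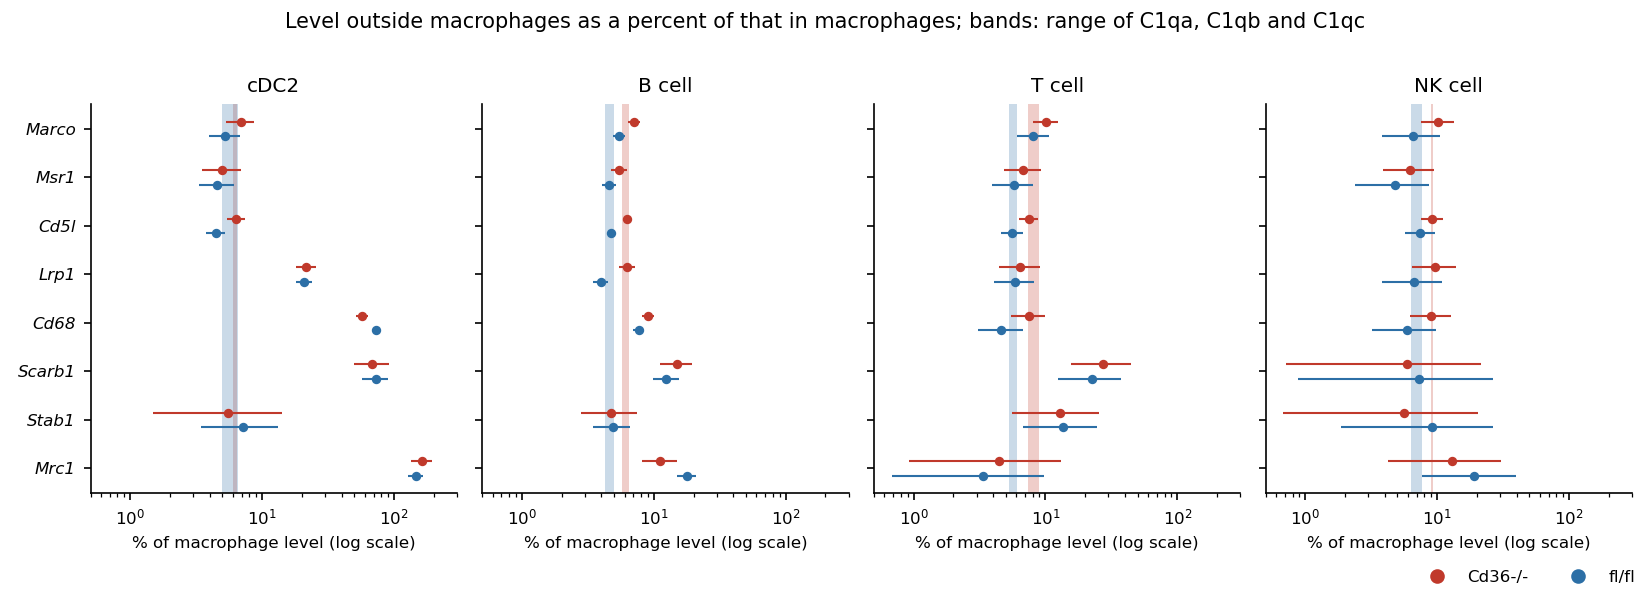
Level of 8 members in cDC2, B, T and NK cells as a percent of their level in macrophages (log axis), with Cd36-/- above fl/fl and exact conditional intervals. Shaded bands give the range of C1qa, C1qb and C1qc in each library. Mrc1, Scarb1, Cd68 and Lrp1 lie right of the bands in cDC2, and Marco, Msr1 and Cd5l lie on or near them in every panel.

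Scarb1 and Mrc1, like Cd68, lay above the C1q genes in B cells. Scarb1 was at 15.0% (11.2 to 19.6) of its macrophage level in B cells for Cd36-/- and at 12.4% (9.83 to 15.4) for fl/fl cells, and at 27.2% and 22.4% in T cells, from 16 and 15 UMIs. Mrc1 in B cells was at 11.2% of its macrophage level for Cd36-/- and 17.7% for fl/fl cells, from 46 and 161 UMIs. Of these, the Mzb1 and Zcwpw1 B cell cluster held 31 UMIs in 28 of 1509 Cd36-/- cells and 141 UMIs in 124 of 2096 fl/fl cells (3.26 and 8.64 CPM), with at most 4 UMIs in a cell. The Ighd and Fcer2a B cell cluster held 12 and 17 UMIs in 1383 Cd36-/- and 2091 fl/fl cells (3.63 and 2.79 CPM). After thinning to 1500 UMIs per cell, Mrc1 was seen in 0.646% of Cd36-/- and 0.709% of fl/fl B cells. The difference between the libraries was not tested.

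The share of macrophages with a UMI was compared after each cell was thinned to 1500 UMIs, which left out 390 Cd36-/- and 333 fl/fl macrophages that were shallower. Thinning was done in a single random draw, and the spread between draws was not measured. Marco was seen in 24.5% of Cd36-/- and 20.2% of fl/fl macrophages, against 4.48% and 2.67% of B cells. The unthinned shares in macrophages were 44.0% and 38.8% (medians of 7912.5 and 8881 UMIs per cell), and those in B cells 11.3% and 7.64% (3653 and 4291 UMIs). Msr1 was seen in 33.7% and 29.8%, Cd5l in 66.1% and 60.4%, and Cd68 in 31.2% and 27.6% of Cd36-/- and fl/fl macrophages. Lrp1 was seen in 30.01% and 32.3%, Mrc1 in 4.63% and 6.14%, Stab1 in 4.14% and 4.98%, Scarb1 in 3.93% and 4.05%, and Cd163 in 0.258% and 0.325%. Colec12 was seen in 1.28% of Cd36-/- and 0.781% of fl/fl macrophages. Thinned to 3000 UMIs instead, which left out 949 Cd36-/- and 841 fl/fl macrophages, Colec12 was seen in 2.19% of Cd36-/- and 1.95% of fl/fl macrophages and Cd163 in 0.756% and 0.613%, so the order for Cd163 turned round. The other 8 genes kept their order. Unthinned, in the same order of libraries, the shares were 80.0% and 77.4% for Msr1, 90.2% and 86.4% for Cd5l, 74.5% and 72.9% for Cd68, and 77.2% and 81.4% for Lrp1. They were 17.3% and 22.1% for Mrc1, 17.1% and 21.2% for Stab1, 18.8% and 21.9% for Scarb1, 1.72% and 1.91% for Cd163, and 4.71% and 4.85% for Colec12, whose order was thus the other way before thinning.

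At this depth a macrophage showed a mean of 1.997 of the 10 genes for Cd36-/- and 1.87 for fl/fl cells, and a B cell 0.239 and 0.169. LPM showed the most, with 2.46 and 2.25, and 17.4% of Cd36-/- and 13.3% of fl/fl LPM showed 4 or more. Some pairs of genes shared macrophages more often, and others less often, than the product of their shares. Marco and Mrc1 shared a cell 0.62 times as often among Cd36-/- cells and 0.54 times as often among fl/fl cells as the product of their shares. Mrc1 and Stab1 shared one 1.94 and 1.70 times as often. Marco and Lrp1 were at 1.15 in each library. Members seen in 1 cell share its depth and cluster, so these ratios are a description.

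The genes with the most similar profile to each member were found over 18 points, the 9 macrophage clusters in each of the 2 libraries, which share cells' depth and library. Marco went with Slc7a2 (Pearson r = 0.97), an arginine transporter, and Rai14. Mrc1 went with Rbpj (0.98), the DNA-binding partner of Notch, and Gng2. Stab1 went with Hal (0.93), an enzyme of histidine breakdown, and Dusp7. Cd5l went with the integrin gene Itgam (0.97) and Pam, and Msr1 with Ccnd1 (0.93), a cyclin, and Padi4. Cd68 went with Srgn (0.92), the proteoglycan of secretory granules, and Ppib, Lrp1 with Prr13 (0.95) and Mfsd5, and Scarb1 with Eif3g (0.84) and Bin2. Among the members, Marco and Mrc1 ran opposite (r = -0.74) and Msr1 and Cd5l together (0.86).

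The relatives of these receptors were taken from a list of 47 genes, of which 17 reached 20 CPM in macrophages. Of these, 8 were higher and 9 lower, with a median log2 ratio of -0.01, and 2 were past the limit. Among all 4595 genes compared, 1.41% were past it upwards and 2.26% downwards. Cxcl16, a membrane chemokine that also binds oxidised lipoprotein, had 84.5 CPM in Cd36-/- and 66.7 CPM in fl/fl macrophages (log2 ratio 0.34, 0.29 to 0.39). The gene lower was Cd36, the one floxed in these mice. Of the 15 relatives within the limit, the 4 with the highest levels had ratios between 0.02 and 0.14. Lamp1 and Lamp2, glycoproteins of the lysosome membrane like Cd68, had 787 and 774 CPM and 382 and 365 CPM in Cd36-/- and fl/fl macrophages. Hp, haptoglobin, which Cd163 recognises in complex with haemoglobin, had 271 and 246 CPM (0.14), and Cd14, a co-receptor for lipopolysaccharide, had 209 and 202 CPM (0.05).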

How the data were processed

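The authors deposited, per sample, a raw count matrix of UMIs per gene and cell barcode. It was made with Cell Ranger, per the submitters' processing notes, with software version 3.0.0 and mm10 per the file headers; its other settings are not given in the sources used here. From these counts, barcodes with at least 200 genes and at most 10% mitochondrial UMIs were kept (36 Cd36-/- and 38 fl/fl barcodes had fewer genes, and 507 and 766 more mitochondrial UMIs). Scrublet marked 1034 (6.46%) and 768 (5.21%) of the remaining cells as doublets, which were removed. Cells were clustered with scanpy 1.11.5 and leidenalg 0.10.2 on 2000 variable genes, 40 components and 20 neighbours at resolution 1. The 10 genes, Cd36, Lyz1, Lyz2, Xist, Tsix and Y-linked, mitochondrial, ribosomal, immunoglobulin and T cell receptor genes were kept out of the clustering. Clusters were named from marker lists, so each name means only that a cluster resembles the type. A cluster with T and B cell markers together and red cells stayed unnamed.

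UMIs were summed per class and library and given as CPM with exact Poisson intervals, ratios with exact conditional binomial intervals and shares with Clopper-Pearson intervals, at 95% (scipy 1.17.1). TMM factors came from edgeR 4.0.16. Genes under 20 CPM in both libraries were not compared; where a count was 0, the limit is 3 counts. The ratio script was checked on simulated counts. UMIs collapse PCR copies, but the intervals cover counting error alone. The members and lists were chosen with earlier results of these data known. All 10 members were named, with Cd36 and Lyz2 as checks of the labels, relatives past the limit of 25% higher or 20% lower plus the 4 of highest level, and for each compared member the 2 genes of highest correlation of log2(CPM + 1). Promoters are from RefSeq, and spans from GENCODE.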

Additional observations from a re-analysis of the deposited data

Results flagged for a closer look

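For 2 of the 10 genes the ratio of the libraries pointed in opposite directions in different macrophage clusters, with counting intervals that lay wholly on either side of 0. Marco had a log2 ratio, Cd36-/- over fl/fl, of -0.26 in the Alox15 LPM cluster and of 1.248 in the MHC class II cluster. The second value rests on 131 Cd36-/- and 78 fl/fl UMIs, and on 35.1 and 14.8 CPM beside 26.3 and 14.7 CPM in B cells, so it lies near the level in a type that should lack the gene. Scarb1 had a log2 ratio of -0.46 in the Folr2 and Lyve1 cluster and of 1.05 in the shallow LPM cluster, from 46 Cd36-/- and 32 fl/fl UMIs in the last. With 1 library per group, neither difference between clusters was tested.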

How the results depend on the processing

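The number of the 10 genes at least 25% higher in Cd36-/- macrophages was 1, Marco, under every alternative run. The number at least 20% lower was 1, Mrc1, and became 0 with TMM scaling, 2 (Mrc1 and Stab1) with each cell weighted alike, and 0 with one common cluster make-up, an alternative chosen after seeing the data. With doublets kept it was Stab1 in place of Mrc1. All 112 log2 ratios in macrophages recomputed under other settings kept their sign, and 16 of them moved beyond the counting interval; over macrophages, LPM and Gata6-low macrophages 308 of 308 kept it and 41 moved. In macrophages Marco ranged from 0.44 to 0.55, Mrc1 from -0.37 to -0.14 and Stab1 from -0.33 to -0.21. The alternatives without the barcodes seen in both libraries and without the shallowest macrophage cluster were also added after seeing the data. No paired analysis was possible because each group is 1 pooled library, and for the same reason no replicate could be left out. Depth limits Cd163 and Colec12 most: they reached 182 and 526 UMIs in Cd36-/- and 161 and 439 UMIs in fl/fl macrophages.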
